A study of Gallus gallus with 6 samples.

Results

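Expression of 10 genes of fat absorption and lipoprotein assembly was examined in the chicken jejunum: the apolipoprotein genes APOA1, APOA4 and APOB, the transfer protein gene MTTP, the fatty acid binding protein genes FABP1, FABP2 and LBFABP, and CD36, PLIN2 and DGAT2. They were taken by gene symbol, and each symbol matched 1 of the 24356 genes listed. All 10 had a mean of at least 0.5 FPKM (read counts per kilobase of exon, scaled by library total) over the birds, as did 14282 genes in all, and these were tested. The libraries came from 6 Korat chickens, a slow-growing cross of a Thai indigenous line with a broiler line, at 10 weeks of age. The low-FCR group (L1, L2 and L3) and the high-FCR group (H1, H2 and H3) were birds from the opposite ends of a ranking by feed conversion ratio, the feed eaten per unit of weight gained. All birds were caged singly, fed ad libitum on the same starter, grower and finisher diets and fasted before sampling, and no treatment or genotype separated the groups. Each bird gave 1 library of poly(A) RNA, so n = 3 birds in each group, and RNA was taken from the whole section of the jejunum and not from sorted epithelium.

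Enterocytes take up fatty acids and monoglycerides after lipolysis in the gut lumen, carry fatty acids through the cytosol on binding proteins and rebuild triglyceride at the endoplasmic reticulum. There MTTP loads the lipid onto APOB, and the growing particle gains APOA4 and APOA1 before it is secreted. In birds these particles are called portomicrons and enter the portal blood, whereas mammalian chylomicrons enter the lymph. Triglyceride that is not exported is held in cytosolic droplets coated by PLIN2.

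Total counts per library ranged from 10436038 in L3 to 11370043 in H3, and 3 counts equalled 0.249 to 0.304 CPM (library-scaled counts after TMM normalization). Intervals and limits given here cover counting error only. Some libraries stood apart. Genes on chromosome W, which only hens carry, summed to 16140 counts in L1 and stayed at 48 to 80 elsewhere, although the study describes the birds as males. Over 652 genes of chromosome Z the median difference in log2 level between L1 and the mean of the other birds was -0.57. For each of the others, set against the rest in the same way, it was 0.06 to 0.20. The title of H3 names the low-FCR group while its code and the study place it in the high-FCR group, as was done here. The labels also number L1, L2, L3 and H1 as 41204, 41220, 41233 and 41217, and H2 and H3 as 0998 and 1057. What these numbers stand for was not given in the sources used here, and H1 was the only high-FCR bird numbered like the low-FCR birds. None of the 10 genes overlapped another listed gene on GRCg6a. Enterocyte markers were present in every library, with EPCAM, an epithelial adhesion molecule, at 15288 to 21501 counts.

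Per kilobase, the 10 genes covered a wide range of levels. APOA1 had the highest mean over the 6 birds, at 2085 ± 1753 FPKM (SD), followed by FABP1 at 1296 ± 836, FABP2 at 571 ± 427 and APOA4 at 452 ± 372. MTTP at 91.6 ± 46.6, PLIN2 at 65.6 ± 55.8 and APOB at 49.5 ± 29.2 FPKM formed a middle range. DGAT2 at 16.3 ± 4.06, CD36 at 13.3 ± 13 and LBFABP at 5.43 ± 6.68 FPKM were the lowest. Within single libraries this order was mostly not fixed. FABP1 exceeded FABP2 in 6 of 6 birds, while APOA1 exceeded FABP1 in 4, FABP2 exceeded APOA4 in 5, APOA4 exceeded MTTP in 5, APOB exceeded DGAT2 in 5 and DGAT2 exceeded CD36 in 5. MTTP exceeded PLIN2 in 4 birds, PLIN2 exceeded APOB in 3 and CD36 exceeded LBFABP in 4, so neighbours in the order overlapped except for the FABP pair.

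The birds differed in how much of their RNA these genes took. The 10 genes held 0.837%, 0.736% and 0.418% of all counts in L1 to L3, against 1.06%, 0.205% and 0.112% in H1 to H3. H1 was thus above every low-FCR bird, and H2 and H3 were below them all. APOA1 alone gave 0.465%, 0.358% and 0.121% of counts in L1 to L3, against 0.523%, 0.0514% and 0.0311% in H1 to H3. Ranked by counts among all genes, APOA1 stood at place 17, 18 and 58 in L1 to L3, against 10, 189 and 409 in H1 to H3. In whole tissue, fewer cells of a type and less RNA per cell cannot be told apart.

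**Figure D1:**
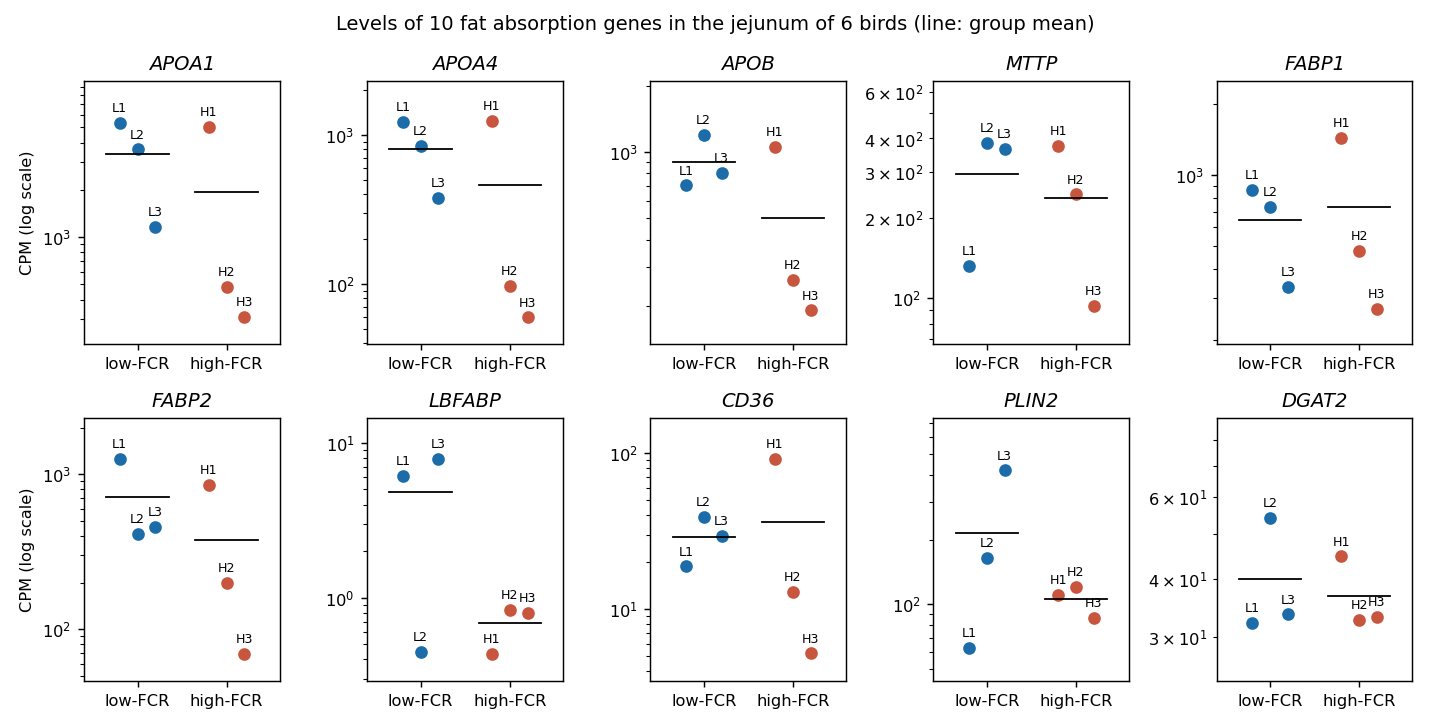
Level of each of the 10 genes in the jejunum of 3 low-FCR birds (blue, L1 to L3) and 3 high-FCR birds (red, H1 to H3), in CPM on a log axis. Points are birds and lines are group means. In every panel the groups overlap, and H1 lies apart from H2 and H3 in APOA1, APOA4, APOB, FABP1, FABP2 and CD36.

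APOA1 and APOA4 encode the small exchangeable apolipoproteins of the particle surface, APOA1 being also the main protein of high density lipoprotein. They lie on the minus strand of chromosome 24 on GRCg6a, APOA4 at positions 5136775 to 5138258 and APOA1 at 5140181 to 5141930, with 1922 bases between them. APOA1 (ENSGALG00000007114) had 5348, 3620 and 1157 CPM in L1 to L3, against 5044, 483 and 312 CPM in H1 to H3. APOA4 (ENSGALG00000007109) had 1214, 837 and 377 CPM in the low-FCR birds, against 1233, 96.4 and 59.5 CPM in H1 to H3. For both genes L1, L2 and H1 were high, L3 was in between and H2 and H3 were low. APOA1 averaged 3375 ± 2106 CPM in the low-FCR group and 1946 ± 2684 CPM in the high-FCR group (SD, n = 3 each), a log2 FC (low-FCR over high-FCR) of 0.79 with a standard error (SE) of 0.99, or 1.73-fold. APOA4 averaged 809 ± 419 CPM in the low-FCR group and 463 ± 667 CPM in the high-FCR group, and the log2 FC was 0.81 (SE 1.005). Neither difference exceeded its SE. Single birds set the size of both. For APOA1 the log2 FC was 0.30 without L1, 0.33 without H2 and 0.29 without H3, and 3.09 (SE 0.69) without H1. For APOA4 it was 0.40 without L1, 0.32 without H2 and 0.28 without H3, and 3.38 (SE 0.58) without H1.

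The ratio of the pair varied less than either level. From the lowest to the highest bird, APOA1 spanned 17.2-fold and APOA4 20.7-fold. Within each library, APOA1 was 4.88, 4.79 and 3.40 times APOA4 in FPKM in L1 to L3, against 4.53, 5.55 and 5.80 times in H1 to H3. The high-FCR birds with the lowest levels had the highest ratios, and L3 had the lowest. APOC3, an inhibitor of lipoprotein lipase in mammals, lies between the pair on the plus strand, at 5139000 to 5139712. It was sparse, with 15, 27 and 10 counts in L1 to L3, against 21, 7 and 5 in H1 to H3. It too was lowest in H2 and H3 (log2 FC 0.76, SE 0.73).

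APOB encodes the large structural protein of the particle, which stays with it from assembly to clearance. The avian intestine makes the full-length form, since birds lack the editing of its mRNA that gives the short form in mammalian intestine. APOB (ENSGALG00000016491; chromosome 3, 102199405 to 102233660, minus strand) had 705, 1197 and 804 CPM in L1 to L3, against 1053, 262 and 191 CPM in H1 to H3. H1 lay among the low-FCR birds and H2 and H3 were below all of them. The means were 902 ± 260 CPM in the low-FCR group and 502 ± 479 CPM in the high-FCR group (SD, n = 3 each), and the log2 FC was 0.85 (SE 0.60). It was 0.56 without L2, 0.54 without H2 and 0.46 without H3, and 2.00 (SE 0.39) without H1.

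MTTP encodes the lipid-binding subunit of the microsomal triglyceride transfer complex and moves lipid onto APOB as it is made. MTTP (ENSGALG00000035619; chromosome 4, 60028589 to 60056286, plus strand) had 132, 384 and 364 CPM in L1 to L3, against 375, 246 and 93.2 CPM in H1 to H3. L1 and H3 were the low birds and the other 4 were within 246 to 384 CPM. The means were 293 ± 140 CPM in the low-FCR group and 238 ± 141 CPM in the high-FCR group, and the log2 FC was 0.30 (SE 0.54). With 1 bird left out it ranged from -0.082 (without H3) to 0.79 (without H1). Its protein partner is P4HB, a protein disulfide isomerase that many other proteins of the endoplasmic reticulum also use. P4HB had 6572, 11196 and 5120 counts in the low-FCR birds, against 11377, 10859 and 7609 in the high-FCR birds (log2 FC -0.26, SE 0.34).

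APOB and MTTP did not vary in step. In FPKM within a library, APOB was 1.11, 0.649 and 0.460 times MTTP in L1 to L3, against 0.585, 0.221 and 0.427 times in H1 to H3. L1 combined the second lowest MTTP level with an APOB level near that of L3. SAR1B, the small GTPase of the vesicles that carry these particles out of the endoplasmic reticulum, varied less. It had 899, 1177 and 705 counts in the low-FCR birds, against 1175, 958 and 563 in the high-FCR birds (log2 FC 0.17, SE 0.31).

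**Figure D2:**
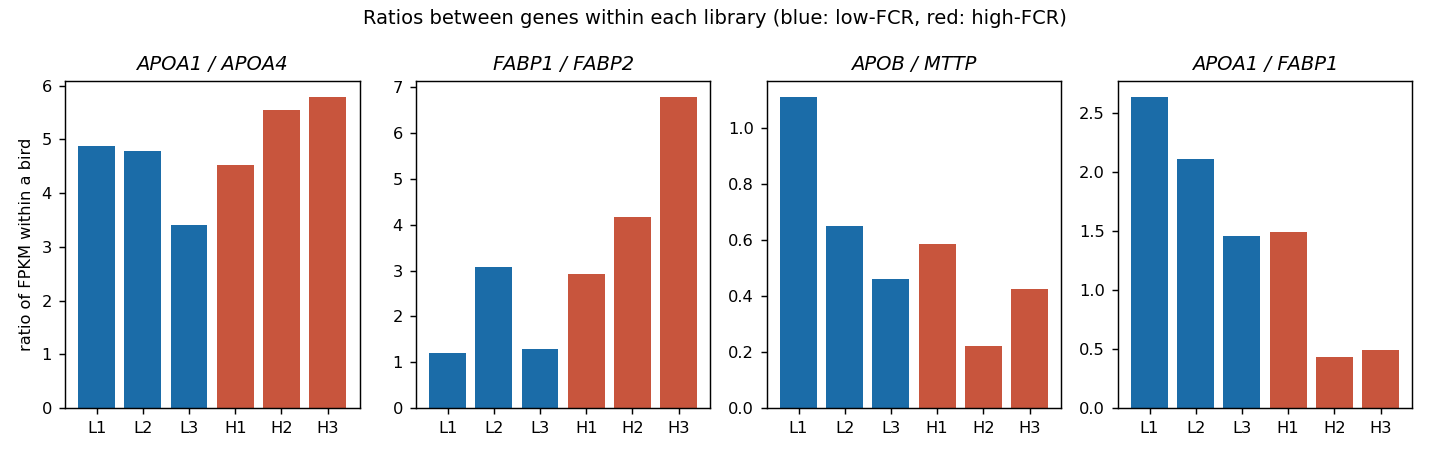
Ratios of FPKM between pairs of genes within each library, for low-FCR birds (blue) and high-FCR birds (red), on axes that start at 0. APOA1 over APOA4 stays between 3.40 and 5.80, while FABP1 over FABP2 ranges from 1.20 to 6.80 and APOA1 over FABP1 from 0.430 to 2.64.

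FABP1 and FABP2 encode the liver-type and the intestinal-type fatty acid binding proteins, both of which are abundant in the cytosol of absorptive enterocytes. FABP1 (ENSGALG00000015937; chromosome 4, 85982308 to 85986038, minus strand) had 861, 730 and 337 CPM in L1 to L3, against 1436, 477 and 271 CPM in H1 to H3. H1 was the highest and H3 the lowest of all birds, and the low-FCR birds lay between them. The means were 643 ± 273 CPM in the low-FCR group and 728 ± 622 CPM in the high-FCR group (SD, n = 3 each), and the log2 FC was -0.18 (SE 0.60). With 1 bird left out it ranged from -0.57 (without H3) to 0.78 (without H1).

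FABP2 (ENSGALG00000011986; chromosome 4, 54716739 to 54719703, plus strand) varied more. It had 1252, 413 and 459 CPM in L1 to L3, against 854, 200 and 69.6 CPM in H1 to H3. Only H2 and H3 were below the low-FCR birds, and H3 was 18.0-fold below L1. The means were 708 ± 472 CPM in the low-FCR group and 374 ± 420 CPM in the high-FCR group, and the log2 FC was 0.92 (SE 0.81). It was 0.22 without L1, 0.62 without H2 and 0.43 without H3, and 2.39 (SE 0.67) without H1. FABP1 was 1.20, 3.09 and 1.28 times FABP2 in FPKM in L1 to L3, against 2.94, 4.16 and 6.80 times in H1 to H3. L1 and L3, with nearly equal ratios, were the birds with relatively most FABP2. APOA1 relative to FABP1 separated the birds otherwise, at 2.64, 2.11 and 1.46 in L1 to L3, against 1.49, 0.430 and 0.487 in H1 to H3.

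LBFABP encodes the liver basic fatty acid binding protein, a relative of FABP1 that binds bile acids and fatty acids and was first known from chicken liver. It was the least expressed of the 10 genes and had the largest log2 FC. LBFABP (ENSGALG00000004141; chromosome 23, 5776686 to 5779203, minus strand) had 60, 5 and 86 counts in L1 to L3, against 5, 10 and 9 in H1 to H3. The exact Poisson 95% intervals were 45.8 to 77.2 for L1 and 68.8 to 106 for L3, against at most 4.80 to 18.4 in a high-FCR bird, while those of L2 and H1 were both 1.62 to 11.7. L1 and L3 thus stood apart, and L2 lay at the level of H1. In CPM it had 6.09, 0.446 and 7.86 in L1 to L3, against 0.436, 0.830 and 0.793 in H1 to H3. The means were 4.80 ± 3.87 CPM in the low-FCR group and 0.686 ± 0.218 CPM in the high-FCR group (SD, n = 3 each), and the log2 FC was 2.78 (SE 0.92). The study itself singled LBFABP out on these same libraries, in the same direction and with a smaller log2 FC from its own DESeq2 fit. With DESeq2 the log2 FC here was 2.8, and the reason for the gap was not tested. The study also measured LBFABP by RT-qPCR on the same RNA samples and reported concordant patterns for the genes so measured. Here LBFABP was the only one of the 10 genes with an unadjusted edgeR p under 0.05, and on the same libraries this is not independent evidence. The unadjusted p was no longer under 0.05 without L3, without L1 and H3 together, with H3 grouped as low-FCR, with a term for the number series or with limma. LBFABP was 0.752%, 0.0649% and 2.49% of FABP1 in FPKM in L1 to L3, against 0.0325%, 0.186% and 0.311% in H1 to H3.

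Of the markers of the distal small intestine, SLC10A2 and FABP6 were higher in L1, L3 and H2 than in the other birds. LBFABP was also highest in L1 and L3, but it did not set H2 apart, with 10 counts there against 9 in H3. The order among L1, L3 and H2 was that of LBFABP in SLC10A2 only, and the remaining markers did not set these birds apart from the rest. SLC10A2, the ileal bile acid transporter, had 467, 0 and 1324 counts in L1 to L3, against 74, 262 and 41 in H1 to H3. It was highest in L3 and L1, next in H2 and lowest in L2, where a count of 0 leaves room for 0.268 CPM. FABP6, the ileal bile acid binding protein, had 45215, 151 and 3596 counts in the low-FCR birds, against 2217, 7865 and 160 in the high-FCR birds, so H2 exceeded L3. SLC51A was highest in L1 and next in H1, FGF19 and NTS were highest in H1, and GUCY2C and PYY were highest in L3 with no such height in L1. Over the 7 of 9 listed distal markers that were tested, summed levels were 490 to 5200 CPM in the low-FCR group and 252 to 1135 CPM in the high-FCR group, and 6 of the 7 had a log2 FC above 0. Of the 5200 CPM in L1, FABP6 gave 4587. CLDN8 was at 0 in all birds. Of 14 hepatocyte markers listed, 6 were tested, and these summed to 64.8 to 97.9 CPM in the low-FCR group and 60.1 to 98.1 CPM in the high-FCR group. FGA, AHSG, TTR, CPS1 and AMBP fell short of 0.5 FPKM, and albumin (ALB) stood at 38, 52 and 40 counts in the low-FCR birds, against 27, 28 and 32 in the high-FCR birds. The part of these markers in the LBFABP result was not tested.

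CD36 encodes a membrane receptor for long-chain fatty acids that endothelial cells, macrophages and adipocytes also carry. CD36 (ENSGALG00000008439; chromosome 1, 11333589 to 11371413, minus strand) had 18.8, 38.8 and 29.4 CPM in L1 to L3, against 91.2, 12.9 and 5.20 CPM in H1 to H3. H1 was far above all other birds, and H2 and H3 were the lowest. The means were 29.0 ± 10.0 CPM in the low-FCR group and 36.4 ± 47.6 CPM in the high-FCR group (SD, n = 3 each), and the log2 FC was -0.33 (SE 0.86). The sign turned without H1, to 1.68 (SE 0.53), and the log2 FC was -0.84 without H3 and -0.73 without H2. Markers of those other cell types were not high in H1. Macrophage markers (8 tested of 9 listed, 3 higher and 5 lower among low-FCR birds) lay on average 0.56 under the mean of the birds on the log2 scale there (-0.56), and endothelial markers (7 of 9, 7 higher) stood at -0.35. Summed, macrophage markers reached 480 to 580 CPM in the low-FCR group and 449 to 687 CPM in the high-FCR group, and endothelial markers 328 to 727 CPM in the low-FCR group and 351 to 468 CPM in the high-FCR group, with none at 0. SCARB1, another lipid receptor of the brush border, had 1054, 1075 and 149 counts in L1 to L3, against 1413, 514 and 349 in H1 to H3 (log2 FC 0.14, SE 0.73).

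PLIN2, the main coat protein of small lipid droplets, had a different profile from the particle genes. PLIN2 (ENSGALG00000015090; chromosome Z, 33602917 to 33617017, minus strand) had 62.9, 164 and 420 CPM in L1 to L3, against 111, 121 and 86.3 CPM in H1 to H3. The high-FCR birds were close together, while the low-FCR birds held both the lowest value, in L1, and the highest, in L3. The means were 215 ± 184 CPM in the low-FCR group and 106 ± 17.6 CPM in the high-FCR group (SD, n = 3 each), and the log2 FC was 1.03 (SE 0.57), or 0.10 without L3 and 1.46 without L1. PLIN2 is Z-linked, and L1 was the bird with low Z-linked levels as a whole. On the log2 scale PLIN2 in L1 lay below the mean of the birds (-1.055). Of other Z-linked genes named here, LPL lay above that mean in L1 (0.34) and ABCA1 below it (-2.92). The part of chromosome Z in the PLIN2 level was not tested. L3 was the highest bird in the average of the endothelial markers, at 0.67 above the mean of the birds on the log2 scale. Its average over the adipocyte markers was 1.15, but their median was 0.48, against 0.42 in L1, since only RBP7, FABP4 and PLIN1 were highest in L3. ADIPOQ and CIDEC were highest in L1, LPL in L2 and CIDEA in H2. The 7 adipocyte markers tested of 8 listed summed to 154 to 254 CPM in the low-FCR group, with L1 the highest, and 163 to 223 CPM in the high-FCR group. Of the 7, 5 had a log2 FC above 0 and 2 below, with a median of 1.16, against 0.02 over all genes tested. By edgeR 4 of the 7 (FABP4, CIDEC, LPL and RBP7) were higher at an unadjusted p under 0.05, against 2.02% of all genes, and 0 passed adjustment. ADIPOQ, the most abundant, had 1631, 857 and 1164 counts in L1 to L3, against 1753, 1305 and 1515 in H1 to H3, and RBP7 stood at 11, 9 and 171 counts in L1 to L3, against 13, 7 and 11 in H1 to H3. None was at 0, and their part in the PLIN2 level was not tested.

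DGAT2 encodes one of the enzymes that add the last fatty acid to make triglyceride, and it varied least. DGAT2 (ENSGALG00000040418; chromosome 1, 196969914 to 196986048, plus strand) had 32.2, 54.3 and 33.6 CPM in L1 to L3, against 44.7, 32.6 and 33.1 CPM in H1 to H3. L2 and H1 were the higher birds and the other 4 lay within 32.2 to 33.6 CPM. The means were 40.0 ± 12.4 CPM in the low-FCR group and 36.8 ± 6.85 CPM in the high-FCR group (SD, n = 3 each), and the log2 FC was 0.12 (SE 0.29), or -0.19 without L2. MOGAT2, which makes the diglyceride that DGAT enzymes use, had 284, 1074 and 630 counts in L1 to L3, against 1092, 827 and 456 in H1 to H3 (log2 FC -0.16, SE 0.45). DGAT1 was not analysed here.

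Over the 10 genes, 8 had a log2 FC above 0, as had 51.8% of all genes tested. Their median log2 FC was 0.80, against 0.02 over all genes tested. With total counts in place of TMM 41.4% of all genes were above 0, with 8 of the 10 still above 0. No gene passed adjustment: by edgeR 0 of 10, and 0 of 14282 (0%), had an adjusted p under 0.05, and the adjusted p was 0.997 for each of the 10, which was also the smallest of all genes. An unadjusted p under 0.05 was found for 1 of the 10 and for 3.24% of all genes. DESeq2 called 0 of the 10 and 8 genes in all, and limma called 0. In none of the 10 did the groups fail to overlap, against 6.36% of all genes.

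**Figure D3:**
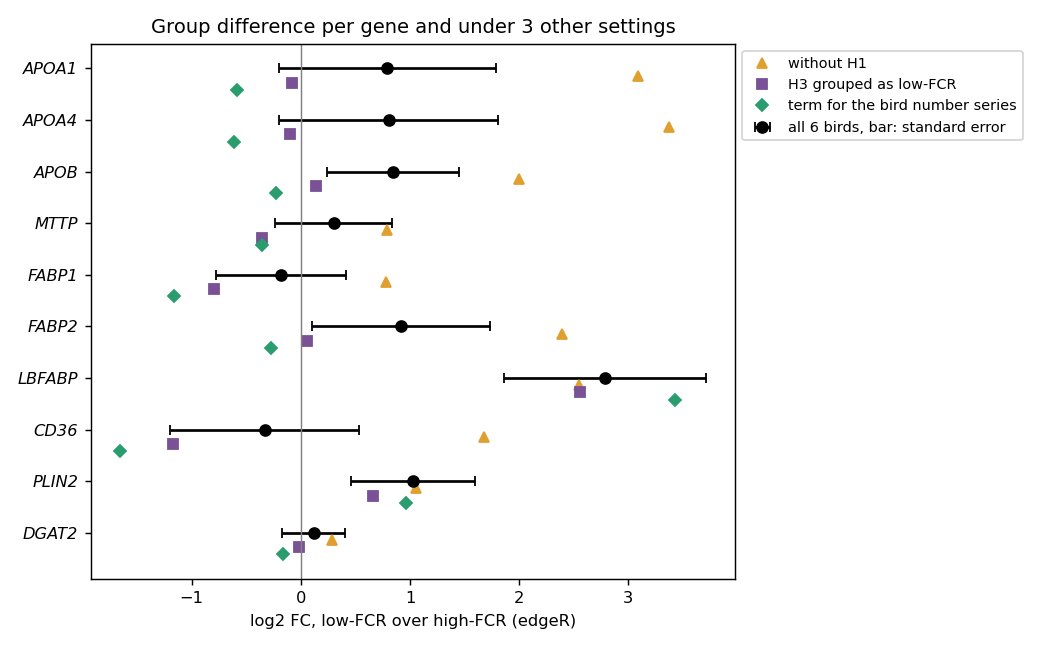
Difference between the groups for each gene, as log2 FC of low-FCR over high-FCR from edgeR with all 6 birds (black, bars are the SE), without H1 (triangles), with H3 grouped as low-FCR (squares) and with the series of bird numbers as a second term (diamonds). The triangles lie furthest to the right for 9 genes, and LBFABP and PLIN2 stay above 0 in every setting shown.

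Most of these values turned on H1. Without it all 10 genes had a log2 FC above 0, and 6 of the 10 (APOA1, APOA4, APOB, FABP2, LBFABP and CD36) had an unadjusted p under 0.05, against 2.93% of all genes, with 0 past adjustment. H1 is the bird whose levels ran against the difference in most of these genes, so that count was not free of the values it describes. With H1 left out, the high-FCR group was H2 and H3 alone, and every low-FCR bird was of the other number series. Group and number series could not be told apart in that fit. Leaving out L1, L2, L3, H2 or H3 in place of H1 gave 2, 1, 0, 1 and 1 of the 10 under 0.05. Over all 14282 genes tested, the same fits gave 355, 1416, 474, 293 and 307 under 0.05. Without L1, 8 of the 10 were above 0. H3 was the lowest bird in 7 of the 10 genes, and neither H2 nor H3 was the highest in any. With H3 grouped as low-FCR, after its title, 4 of the 10 genes were above 0. In 5 of the 10 genes (APOA1, APOA4, APOB, FABP2 and CD36) the 4 birds numbered from 41204 to 41233 all lay above H2 and H3, as they did in 5.20% of all genes. With a term for the number series, which leaves the low-FCR birds to be compared with H1, 2 of the 10 were above 0, LBFABP at 3.43 and PLIN2 at 0.96, while APOA1 was at -0.58, APOB at -0.22, FABP1 at -1.16 and CD36 at -1.65. The second series held high-FCR birds only, so a comparison within it could not be made.

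Enterocyte markers moved with the 10 genes in part. Of 17 markers tested of 20 listed, 14 had a log2 FC above 0 and 3 below, against 51.8% above 0 of all genes tested. By edgeR 1 of the 17 was higher at an unadjusted p under 0.05, against 2.02% of all genes. None of the 17 was at 0 in all birds. On average over the markers, log2 levels lay 0.75 and 0.95 above and 0.70 below the mean of the birds (-0.70) in L1 to L3, against 0.92, -0.37 and -1.54 in H1 to H3. The average over the 10 genes was 0.58, 0.47 and 0.45 in L1 to L3, against 0.79, -0.78 and -1.51 in H1 to H3. L3 was low in the markers and not in the 10 genes. The largest deviations in L3 were those of LBFABP (2.47) and PLIN2 (1.68) among the 10, and of SLC2A2 (-4.48) and TMPRSS15 (-2.81) among the markers. The gap did not rest on these alone, since the medians in L3 were 0.33 over the 10 genes and -0.51 over the markers. Summed marker levels were 6797 to 12530 CPM in the low-FCR group and 4620 to 10750 CPM in the high-FCR group. Single markers differed in range, from 1.39-fold between the lowest and the highest bird for EPCAM to 329-fold for SLC2A2, which had 2 counts in L3. The microvillus protein gene VIL1 spanned 3.20-fold and MEP1B, a brush-border metalloprotease, 24.4-fold. SI, CDHR5 and ALPI were not analysed here. Of the other cell types, smooth muscle markers (10 tested, 9 with a log2 FC above 0) summed to 5041 to 19940 CPM in the low-FCR group and 6398 to 13120 CPM in the high-FCR group. Of 9 T cell markers tested of 10 listed, 0 had a log2 FC above 0. By edgeR 3 of the 9 were lower at an unadjusted p under 0.05, against 1.22% of all genes, and 0 passed adjustment. T cell markers summed to 624 to 1168 CPM in the low-FCR group and 988 to 1771 CPM in the high-FCR group. Only 2 of 10 markers of the exocrine pancreas passed the filter, and PRSS2 was at 0 in all birds. The part of these markers in the results was not tested.

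**Figure D4:**
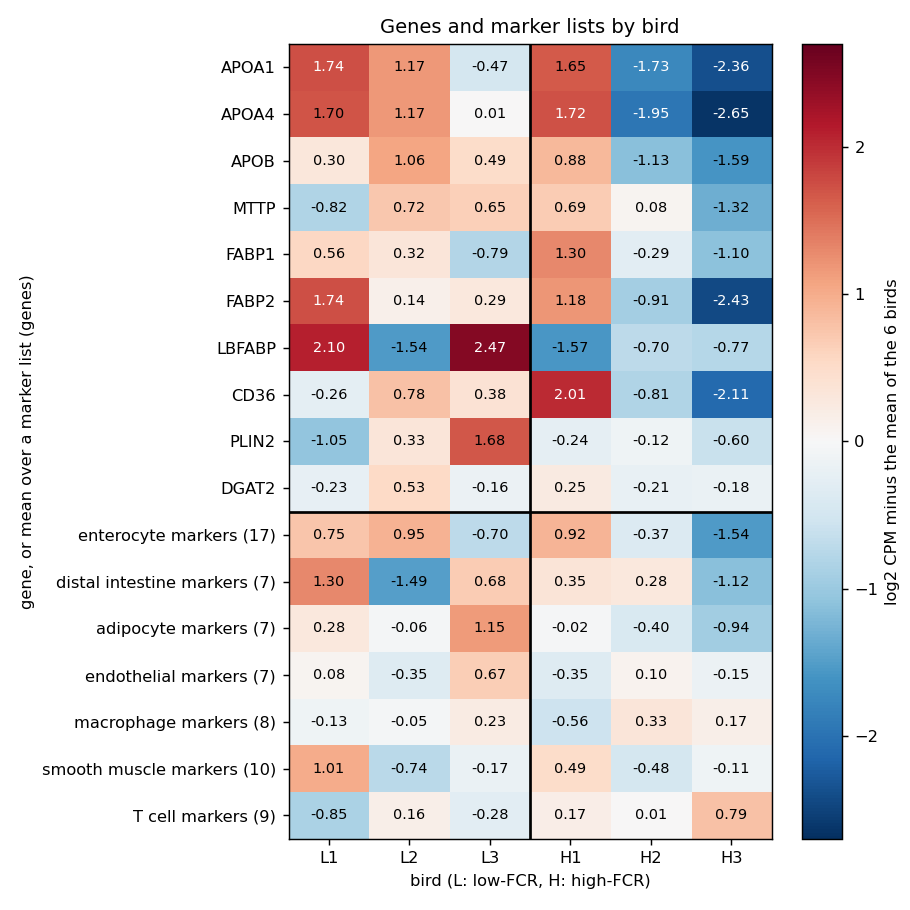
Log2 CPM of each of the 10 genes, and the mean over each marker list, in each bird, as the difference from the mean of the 6 birds. Red is above and blue below that mean, and numbers in brackets are the markers tested. H3 is blue for all 10 genes, L1 and L3 are red and the other birds blue for LBFABP, and the enterocyte row is lowest in H3.

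Profiles were compared by the root mean square difference of log2 CPM centred on each gene's mean over the 6 birds, a measure of likeness that was given no test. Among the 45 pairs of the 10 genes, APOA1 and APOA4 were nearest, at 0.25. APOB and CD36 followed at 0.59, and FABP2 lay at 0.65 from both APOA1 and APOA4. FABP1 and FABP2, at 0.89, were further apart than MTTP and DGAT2, at 0.66. LBFABP was furthest from the rest, from 1.64 with PLIN2 to 2.24 with APOA1.

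Among 11121 other genes with a symbol, the nearest to FABP2 and to APOA4 was the same, MEP1B, at 0.23 and 0.55. The nearest to APOA1 was ACE, the angiotensin-converting enzyme, a brush-border peptidase in intestine, at 0.53. FABP1 was nearest to ANO5 (0.18), MTTP to SLC22A4 (0.20), CD36 to GRM2 (0.31) and DGAT2 to RGS3 (0.08). For the remaining genes the nearest profile rested on few counts: RF02271 for APOB had 0 to 2 counts in a bird, gga-mir-155 for LBFABP 0 to 4, and HRH3 for PLIN2 3 to 28. The next in line, named after the values were seen, were NPAS2 for APOB (0.36), CRABP-I for LBFABP (0.56) and ARRDC4 for PLIN2 (0.24). CRABP-I is a retinoic acid binding protein gene of the same family of small binding proteins. It had 40, 2 and 24 counts in L1 to L3, against 3, 10 and 5 in H1 to H3. That it was highest in L1 and L3, as LBFABP was, follows from its choice by likeness.

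Of 90 other genes of fat uptake, triglyceride synthesis, droplets, particle export and their regulators, 72 symbols were found in 73 entries, and 70 entries were tested. Of these, 39 had a log2 FC above 0 and 31 below, the median was 0.05 and 0 passed adjustment. At an unadjusted p under 0.05, 5 of the 70 were higher and 0 lower, against 2.02% and 1.22% of all genes. This count fell to 0 with H2 or H3 left out, with H3 moved to the low-FCR group and with the number series term. It was 3 with total counts, 2 with limma and without L3, 1 without L1 and H3, and 8 without L2. Over all 14282 genes tested, 463 were under 0.05 in the main fit, and 1416 without L2. The number over all genes was 445 with total counts, 397 or 387 with limma, 474 without L3 and 245 without L1 and H3. With H2 or H3 left out it was 293 or 307, with H3 moved 312 and with the series term 172. The 5 were FABP4, CIDEC, CETP, LPL and PPARA, of which FABP4, CIDEC and LPL are also on the adipocyte list. The 4 birds of the 41 series all lay above H2 and H3 in 9 of the 70 and below them in 4, against 5.20% and 5.15% of all genes.

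FABP4, the fatty acid binding protein of adipocytes and macrophages, had 75, 40 and 231 counts in L1 to L3, against 34, 41 and 39 in H1 to H3, and the log2 FC was 1.72 (SE 0.62). CIDEC, which fuses lipid droplets, had 494, 307 and 271 counts in the low-FCR birds, against 277, 126 and 82 in the high-FCR birds, and the log2 FC was 1.29 (SE 0.49). CETP, the plasma cholesteryl ester transfer protein, had 71, 27 and 171 counts in L1 to L3, against 24, 32 and 37 in H1 to H3, and the log2 FC was 1.65 (SE 0.65). FABP4 and CETP were highest in L3, as PLIN2 was, and CIDEC was highest in L1. LPL, the lipase that releases fatty acids from circulating particles, had 138, 182 and 169 counts in the low-FCR birds, against 118, 68 and 102 in the high-FCR birds (log2 FC 0.87, SE 0.34). PPARA, the nuclear receptor for fatty acids, had 180, 284 and 230 counts in the low-FCR birds, against 195, 124 and 90 in the high-FCR birds, and the log2 FC was 0.88 (SE 0.36). Like the apolipoprotein genes it was low in H2 and H3. The normalized levels of the groups did not overlap in FABP4, CIDEC, LPL and PPARA, nor, in the other direction, in AGPAT4, that is in 5 of the 70 genes, against 6.36% of all genes.

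In the other direction, the 3 genes with the smallest p were ACSBG2, AGPAT4 and MGLL. ACSBG2, an acyl-CoA synthetase gene, had 328, 627 and 394 counts in L1 to L3, against 580, 736 and 866 in H1 to H3 (log2 FC -0.58, SE 0.28). AGPAT4, which makes phosphatidic acid, had 62, 57 and 33 counts in the low-FCR birds, against 73, 95 and 109 in the high-FCR birds (log2 FC -0.73, SE 0.41). MGLL, the monoglyceride lipase, had 930, 1031 and 1080 counts in the low-FCR birds, against 1118, 2025 and 1363 in the high-FCR birds (log2 FC -0.44, SE 0.25). All 3 had higher counts in H2 and H3 than in the other birds, the reverse of APOA1 and APOB. HNF4A, a transcription factor of enterocytes and hepatocytes that binds apolipoprotein promoters in mammals, had 176, 803 and 142 counts in L1 to L3, against 740, 762 and 670 in H1 to H3 (log2 FC -0.86, SE 0.57). It was low in L1 and L3, the birds with high LBFABP, and not in H2 and H3. A relation of HNF4A to LBFABP or to the apolipoprotein genes was not tested.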

How the data were processed

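Poly(A) RNA of the jejunum of 6 birds was sequenced, with 1 library per bird. The study's methods and the submitters' processing notes name Cutadapt 1.9.1 for trimming, HISAT2 2.0.1 for mapping, HTSeq 0.6.1 for counting and Cufflinks 2.2.1 for assembly, with GRCg6a as the genome. The deposited whole-number counts per Ensembl gene came from the HTSeq step. The authors derived the deposited FPKM from the counts, the exonic size and the library total, and recomputing them gave the same values within 0.006 for 100% of entries. The strand setting was not given in the sources used here.

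Genes with a mean of at least 0.5 FPKM were tested on counts in R 4.3.3 with edgeR 4.0.16 (TMM scaling, quasi-likelihood test, group as the only term), with a Benjamini-Hochberg adjustment over all 14282 genes. The SE is the size of the log2 FC, fitted with no prior count, over the square root of the F statistic. CPM are counts scaled by library total and TMM factor. Since each library is 1 bird, p-values measure the spread between birds, and 3 against 3 allow no exact permutation p below 0.1. Alternatives used DESeq2 1.42.0, limma 3.58.1 on log2(FPKM + 0.5) and log2(FPKM + 0.1), other scaling, no filter, other groupings and libraries left out. The test was tested on simulated data. The genes described, the marker lists and the pathway list were chosen with earlier results of these data known. Named were the 10 genes, set partners from the pathway list, its 3 genes with the smallest p in each direction, the gene nearest in profile to each of the 10, and FABP6 and SLC10A2. LPL and the genes marked so in the text were named after their values were seen.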

Additional observations from a re-analysis of the deposited data

How the results depend on the processing

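Over 16 alternatives for each of the 10 genes, 136 of 160 log2 FCs kept their direction, 24 changed it and 0 passed adjustment. LBFABP (1.76 to 3.43) and PLIN2 (0.10 to 1.46) stayed above 0 throughout. Genes past adjustment numbered 8 with DESeq2 and 2 with the replicate block (Wpkci-7 and ENSGALG00000051419), against 0 otherwise. Of the 10 genes, 8 were above 0, against 4 with H3 grouped as low-FCR, 2 with the number series term, 5 without L1 and H3 and 7 to 10 with 1 bird left out. With H3 as low-FCR, APOA1 was at -0.083, APOA4 at -0.097, MTTP at -0.35 and DGAT2 at -0.014. With the series term, APOA1 was at -0.58, APOA4 at -0.61, APOB at -0.22, MTTP at -0.35, FABP2 at -0.27 and DGAT2 at -0.16. Without L1 and H3, APOA1 was at -0.20, APOA4 at -0.12 and FABP2 at -0.27. With limma, CD36 was at 0.42 or 0.49 and DGAT2 at -0.0026 or -0.0036 (pseudocount 0.5 or 0.1). With 1 bird left out, MTTP ranged from -0.082 (without H3) to 0.79, FABP1 from -0.57 to 0.78 (0.13 without L3, 0.78 without H1), CD36 from -0.84 to 1.68 (without H1) and DGAT2 from -0.19 (without L2) to 0.28. APOA1 ranged from 0.29 to 3.09, APOA4 from 0.28 to 3.38, APOB from 0.46 to 2.00 and FABP2 from 0.22 to 2.39. The cause of these changes was not tested.

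The replicate numbers paired the birds weakly at most. The correlation of deviations from group means was 0.15 for L1 and H1 and 0.14 for L2 and H2, the highest of all pairs. It was 0.0019 for L3 and H3, and L3 correlated best with H2 (0.09). With the number as a block, FABP1 was at 0.067 and CD36 at 0.76, so that 10 of 10 were above 0. In that edgeR fit 4 of the 10, and 553 of the 14282 genes tested, had an unadjusted p under 0.05, and 0 of the 10 passed adjustment. Levels of APOA1, APOA4, FABP2 and CD36 spanned 17.2-fold to 20.7-fold over the 6 birds, and depth limits LBFABP, with 5 to 10 counts in L2 and each high-FCR bird.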

Other observations

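The values here were picked after they were seen. GATA4 and ABCA1 are on the pathway list and SLC2A2 is on the enterocyte list, so all were counted in the comparisons above. GATA4, a transcription factor that in mice sets the jejunum apart from the ileum, had 320, 1080 and 222 counts in L1 to L3, against 1289, 761 and 745 in H1 to H3, so that L1 and L3, the birds with high LBFABP, were the low ones. SLC2A2, the basolateral glucose transporter, had 46, 674 and 2 counts in the low-FCR birds, against 419, 94 and 10 in the high-FCR birds. L2 and H1, where DGAT2 was also highest, were the high birds. ABCA1, which loads lipid onto APOA1, had 13, 128 and 372 counts in L1 to L3, against 84, 322 and 132 in H1 to H3. It was lowest in L1, the bird with the highest APOA1 level in CPM. In counts APOA1 was higher in H1, at 57855 against 52716 in L1. ABCA1 is Z-linked, as PLIN2 is, and L1 was the bird with low Z-linked levels as a whole. Relations of GATA4 to LBFABP, of SLC2A2 to DGAT2 and of ABCA1 to APOA1 were not tested. The part of chromosome Z in the ABCA1 level was not tested either.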
